A study of Mus musculus with 4 samples.

Results

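The ependymal cilia genes described here are 10 genes of the motile cilium: Foxj1, Ccdc153, Tmem212, Dynlrb2, Rsph1, Rsph4a, Tekt1, Tekt4, Dnah5 and Dnah11. They were chosen as a fixed list of names and looked up in the gene names of the deposited table. Of the 10 names, 8 were found among the 18674 gene names of the table. The other 2, Dnah5 and Dnah11, are listed there under the older symbols Dnahc5 and Dnahc11, which were matched by RefSeq accession. Their values are given beside those of the 8 and are not part of the counts unless this is stated.

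RNA from the lumbar spinal cord was sequenced in 4 libraries, 1 per condition: WT or G93A mice, each with vehicle or with SD. G93A mice carry a mutant human SOD1 transgene and are a model of amyotrophic lateral sclerosis (ALS). SD is spermidine, a natural polyamine. The comparisons address which genes differ between the G93A and the WT spinal cord, and between SD and vehicle within each genotype. Per the methods, the G93A mice came from males of the high-expressing H1 line crossed to B6/SJLF1 females, and the treatment studies used males alone. SD or PBS was given for 30 days, 4 times per week, and the mice were 100 days old when the tissue was taken. The labels name PBS in the protocol and give the treatment of vehicle samples as none, while another section of the methods names saline as the vehicle. The number of animals behind a library is not stated. With 1 library per condition no difference has a replicate check, no test was run, and every ratio compares libraries rather than conditions.

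Ependymal cells line the central canal of the spinal cord and the brain ventricles and carry motile cilia that move cerebrospinal fluid. A motile cilium is built on an axoneme, a ring of microtubule doublets around a central pair, in which dynein arms drive the beat, radial spokes pass signals from the central pair to the arms, and tektins lie inside the doublets. The forkhead factor Foxj1, with factors of the RFX family, switches on the genes that make these parts. In RNA from whole tissue, fewer cells of a type and less RNA per cell cannot be told apart.

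Values are RPKM, a read number divided by transcript length in kilobases and by the size of the library, a unit inferred from the values themselves. The depth, read from the smallest steps between low values, was between 36785000 and 38565400 read pairs per library. The read pairs of a gene follow from it and are estimates, because between 36.1% and 39.6% of the low values tested lay within 0.05 of a whole number of pairs. A gene was called higher or lower where the ratio of its RPKM between libraries reached 1.5-fold. The median log2 ratio over all names of G93A to WT was 0.046 with vehicle and 0.050 with SD, so that the libraries were nearly centred on each other.

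Between the vehicle libraries, 5 of the 8 ependymal cilia genes were at least 1.5-fold higher in G93A, and 0 were lower. The 5 were Foxj1, Tmem212, Dynlrb2, Rsph1 and Tekt1, with ratios between 1.57 and 2.15. Over all names, 20.7% were higher and 10.5% were lower by the same threshold. The median log2 ratio of the 8 genes was 0.62 (with a pseudocount of 0.1 RPKM). Between the SD libraries, 3 of the 8 were higher in G93A, Dynlrb2, Rsph1 and Tekt1, and 0 were lower, beside 23.8% and 12.8% of all names. The median log2 ratio was then 0.37, and it was 0.20 with Dnahc5 and Dnahc11 included. These G93A to WT comparisons share no library. The 3 genes higher in both are 37.5% of the 8, and 2781 of all 18674 names (14.9%) were higher in both. With a pseudocount of 1 RPKM, which shrinks the ratios of low genes, 3 of the 8 were higher with vehicle and 1 with SD, with medians of 0.39 and 0.23, and Rsph1 alone was higher in both. After scaling by the median ratio 2 were higher in both, since Tekt1 was lost with vehicle. The shares of all names called with that pseudocount or that scaling were not counted, so these counts have no like share beside them. Within a genotype, 1 of the 8, Ccdc153, was lower with SD in WT and in G93A, and 0 were higher, beside 8.82% and 7.46% of all names lower.

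The sum of the 8 genes was 15.6 RPKM in WT vehicle and 25.6 in G93A vehicle, and with SD 19.4 in WT and 24.2 in G93A. Foxj1 gave the largest part of this sum in each library. The WT vehicle library was the lowest of the 4 for 7 of the 8 genes, all but Ccdc153, and for 27.2% of all names. Both G93A libraries lay above both WT libraries for 5 of the 8, Foxj1, Dynlrb2, Rsph1, Rsph4a and Tekt1, and for 39.7% of all names. After scaling by the median ratio this held for 3 of the 8, Dynlrb2, Rsph1 and Tekt1, and for 34.1% of all names. With that scaling 4 of the 8 were higher between the vehicle libraries, since Tekt1, at a log2 ratio of 0.58, fell just under the threshold. The near-level ratios of Rsph4a between the vehicle libraries and of Foxj1 between the SD libraries then changed sign, to -0.04 and -0.01 on the log2 scale.

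**Figure D1:**
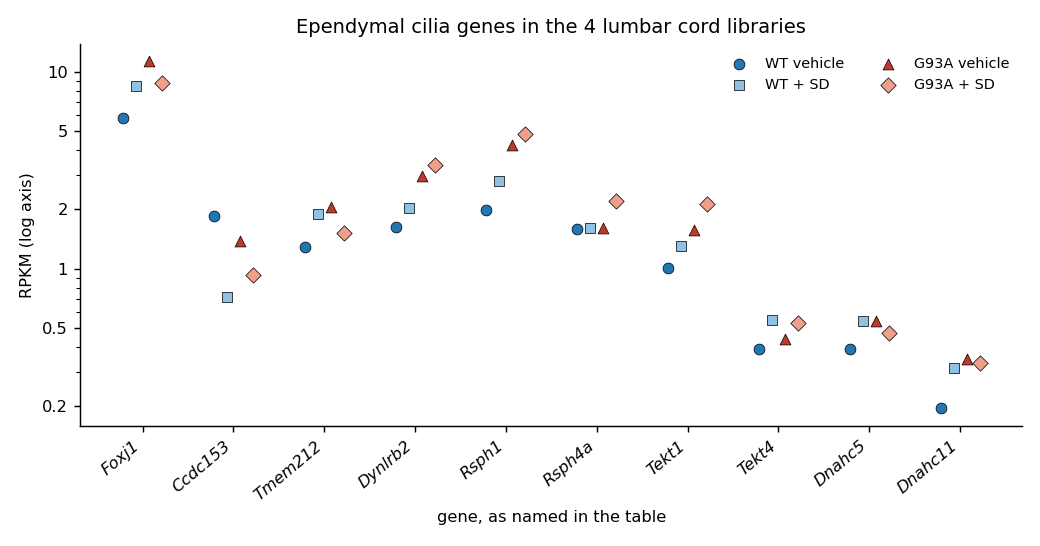
RPKM (log axis) of the 8 genes found by name and of Dnahc5 and Dnahc11 in the 4 libraries, 1 point per library and no error bars, since each condition has 1 library. Foxj1 lies highest, from 5.85 to 11.3 RPKM, and the WT vehicle point is the lowest of the 4 for each gene except Ccdc153.

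RPKM is a value per length, so levels can be set against each other across genes. By the mean over the 4 libraries the order was Foxj1 with 8.60 RPKM, Rsph1 with 3.46, Dynlrb2 with 2.50, Rsph4a with 1.75, Tmem212 with 1.69, Tekt1 with 1.5, Ccdc153 with 1.22, Dnahc5 with 0.487, Tekt4 with 0.477 and Dnahc11 with 0.298. The range of Foxj1 over the libraries lay wholly above that of Rsph1. The ranges of neighbours from Rsph1 to Ccdc153 overlapped, those of Ccdc153 and Dnahc5 did not, those of Dnahc5 and Tekt4 did, and those of Tekt4 and Dnahc11 did not. All 10 genes were above 0 in every library.

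Foxj1, the transcription factor that switches on the motile cilium programme, lies on chromosome 11 of GRCm38 (chr11:116330704-116335399, minus strand, 3 exons). It had 5.85 RPKM in WT vehicle and 11.3 in G93A vehicle, and with SD 8.47 in WT and 8.78 in G93A. These values rest on between 565 and 1124 estimated read pairs, the highest number among the 10 genes. G93A vehicle stood highest, WT vehicle lowest, and the SD libraries lay close together between them. The G93A to WT ratio was therefore 1.93 between the vehicle libraries and 1.04 between the SD libraries. With SD the value was 1.45-fold higher in WT and 1.29-fold lower in G93A, neither past the threshold. The related forkhead genes Foxj2 and Foxj3 differed less: Foxj2 had between 5.39 and 6.15 RPKM and Foxj3 between 11.9 and 13.3 over the 4 libraries.

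Dynlrb2, a light chain of the roadblock family found in dynein complexes of cilia (chr8:116504974-116515915, plus strand, 4 exons), had 1.63 RPKM in WT vehicle and 2.96 in G93A vehicle, and with SD 2.04 in WT and 3.36 in G93A. Both G93A libraries were above both WT libraries, with a ratio of 1.82 between the vehicle libraries and 1.65 between the SD libraries. With SD it was 1.26-fold higher in WT and 1.14-fold higher in G93A, both below the threshold. The transcript is short, 515 bases, and the values rest on between 30.8 and 66.8 estimated read pairs, for which counting error alone is 18.0% in WT vehicle and 12.2% in G93A + SD. Its relative Dynlrb1, which serves cytoplasmic dynein in most cells, had between 90.3 and 95.1 RPKM in the 4 libraries.

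Dnah5 and Dnah11 encode heavy chains of the outer dynein arm, the motor of the beat. Dnahc5 (chr15:28203752-28472052, plus strand, 79 exons) had 0.391 RPKM in WT vehicle and 0.542 in G93A vehicle, and with SD 0.541 in WT and 0.473 in G93A. Only WT vehicle stood apart, lower than the other 3, and the G93A to WT ratio was 1.39 between the vehicle libraries and 0.875 between the SD libraries. Dnahc11 (chr12:117877982-118199043, minus strand, 82 exons) had 0.196 RPKM in WT vehicle and 0.350 in G93A vehicle, and with SD 0.312 in WT and 0.334 in G93A. WT vehicle was again the lowest, with a ratio of 1.79 between the vehicle libraries and 1.07 between the SD libraries. Dnahc11 was also 1.59-fold higher in WT + SD than in WT vehicle. Its exons share 642 bases with Cdca7l on the opposite strand, and counting is not stated to use strand. Cdca7l had 0.523 RPKM in WT vehicle and 0.867 in G93A vehicle, and with SD 0.651 in WT and 0.707 in G93A, and its part in the Dnahc11 values was not tested. The related heavy chain genes were not higher by the threshold: Dnahc9 had between 0.510 and 0.617 RPKM, Dnahc17 between 0.251 and 0.294, and Dnahc8 had 0.129 RPKM in WT vehicle and 0.0398 in G93A vehicle.

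Rsph1 and Rsph4a encode parts of the radial spoke head. Rsph1 (chr17:31255019-31277383, minus strand, 9 exons) had 1.98 RPKM in WT vehicle and 4.26 in G93A vehicle, and with SD 2.80 in WT and 4.80 in G93A. It gave the largest ratio of the 8 genes in both G93A to WT comparisons, 2.15 between the vehicle libraries and 1.72 between the SD libraries, on between 86.7 and 221 estimated read pairs. It was the only 1 of the 8 to reach 2-fold between the vehicle libraries. It was also 1.52-fold higher in G93A vehicle than in WT + SD. Rsph4a (chr10:33905111-33916021, plus strand, 6 exons) had 1.59 RPKM in WT vehicle and 1.62 in G93A vehicle, and with SD 1.61 in WT and 2.20 in G93A. The first 3 of these values were nearly level and G93A + SD alone stood higher, by 1.36-fold over G93A vehicle and 1.37-fold over WT + SD, below the threshold. The spoke head genes differed among themselves in pattern. Rsph6a, a relative of Rsph4a, was near 0 throughout, at most 0.026 RPKM.

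Tekt1 and Tekt4 encode tektins, filament proteins inside the microtubule doublets. Tekt1 (chr11:72344722-72362442, minus strand, 8 exons) had 1.01 RPKM in WT vehicle and 1.58 in G93A vehicle, and with SD 1.30 in WT and 2.13 in G93A. Both G93A libraries were above both WT libraries, with ratios of 1.57 and 1.64 to the WT library of the same treatment. It was also higher with SD than with vehicle in both genotypes, by 1.29-fold in WT and 1.35-fold in G93A, below the threshold. Tekt4 (chr17:25454615-25476602, plus strand, 6 exons) had 0.390 RPKM in WT vehicle and 0.440 in G93A vehicle, and with SD 0.551 in WT and 0.527 in G93A. Here the SD libraries were the higher ones, by 1.41-fold in WT and 1.20-fold in G93A, and the G93A to WT ratios were 1.13 and 0.957. Its values rest on between 22.0 and 32.4 estimated read pairs, and a counting error of 17.6% to 21.3% per library means that these differences were not detectable at this depth. Among the relatives, Tekt2 had 0.814 RPKM in WT vehicle and 1.21 in G93A vehicle, Tekt3 had at most 0.150 RPKM, and Tekt5 went the other way, with 12.7 RPKM in WT vehicle and 8.02 in G93A vehicle, and with SD 13.8 in WT and 7.58 in G93A.

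Ccdc153 and Tmem212 are known as marker genes of ependymal cells, and the molecular role of their proteins is less clear. Tmem212 (chr3:27866066-27896368, minus strand, 4 exons) had 1.29 RPKM in WT vehicle and 2.06 in G93A vehicle, and with SD 1.90 in WT and 1.51 in G93A. Like Foxj1 it was highest in G93A vehicle and lowest in WT vehicle. The G93A to WT ratio was 1.60 between the vehicle libraries, while between the SD libraries G93A was 1.26-fold lower. With SD it was 1.47-fold higher in WT and 1.37-fold lower in G93A.

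Ccdc153 (chr9:44240676-44247306, plus strand, 7 exons) had 1.84 RPKM in WT vehicle and 1.39 in G93A vehicle, and with SD 0.722 in WT and 0.926 in G93A. It was the only gene of the 8 with its highest value in WT vehicle, and both vehicle libraries were above both SD libraries. With SD it was 2.55-fold lower in WT and 1.5-fold lower in G93A, the second only just at the threshold and no longer past it with a pseudocount of 0.1 RPKM. In the other direction, 7.4% of all names were higher with SD in WT and 8.89% in G93A, and 0 of the 8 genes were. The median log2 ratio of SD to vehicle over the 8 genes was 0.37 in WT and 0.17 in G93A. With a pseudocount of 1 RPKM these medians were 0.20 and 0.11, and with Dnahc5 and Dnahc11 included they were 0.40 and 0.059. For Ccdc153 the G93A to WT comparison gave a 1.32-fold lower value with vehicle and a 1.28-fold higher one with SD. The Ccdc153 values rest on 73.6 estimated read pairs in WT vehicle and 57.4 in G93A vehicle, and with SD on 30.0 in WT and 38.8 in G93A, with a counting error of 18.2% in WT + SD.

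**Figure D2:**
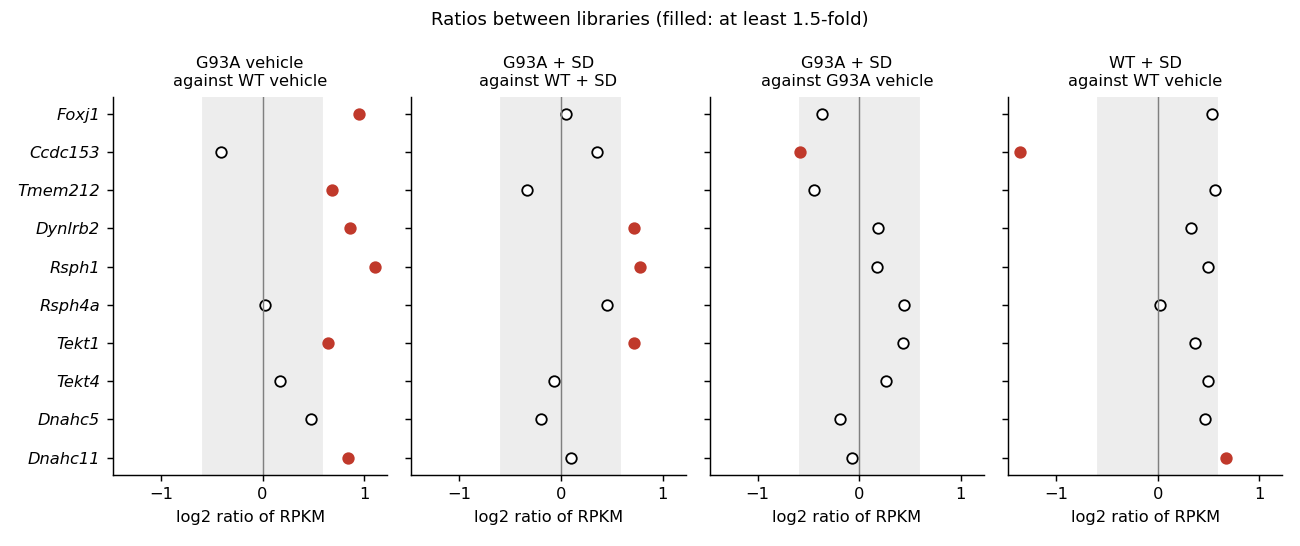
Log2 ratio of RPKM (horizontal axis) for each gene in the 4 comparisons, with the zone below 1.5-fold shaded and filled points at or past it. Rsph1, Dynlrb2 and Tekt1 are filled in both G93A to WT panels, and Ccdc153 is the filled point to the left in both SD panels.

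Most of these genes are low, and low names pass a ratio more often. Among names with a mean of at least 1 RPKM, 13.5% were higher and 4.68% lower in G93A than in WT with vehicle, and 16.3% were higher and 8.12% lower with SD. With SD against vehicle the shares were 1.34% higher and 1.04% lower in G93A, and 0.909% higher and 1.36% lower in WT. Of the 8 genes, Tekt4 has a mean below 1 RPKM. The other 7 belong to the names counted in these shares, with the lowest single value, 0.722 RPKM, in Ccdc153.

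The RefSeq promoter table (GRCm38.p6) holds windows for 7 of the 10 genes, each taken here as the 250 bases before a transcript start. They were searched for GTTGCC, the half-site bound by RFX factors, and for a forkhead motif with the letters TGTTTAC, each also as its reverse complement, that is on both strands. The half-site letters occur in 10.4% of the 32851 windows of all genes. They occur in 3 of the 8 windows of the 7 genes, those of Ccdc153 and Dynlrb2 and 1 of those of Tekt1. The forkhead letters occur in 3.17% of all windows and in 0 of these 8. The 3 windows with the half-site are shown because Dynlrb2 and Tekt1 were higher in both G93A libraries while Ccdc153 was not, so that the same letters stand before genes of different pattern. The sequences run 5′ to 3′ on the strand of the gene, with the half-site letters of either strand in capitals. The half-site begins 51 bases before the start in Dynlrb2 (chr8:116504765-116505014, plus strand), 15 and 35 bases before it in the more upstream of the Tekt1 windows (chr11:72361883-72362132, minus strand) and 152 bases before it in Ccdc153 (chr9:44240427-44240676, plus strand). A match of letters is a description and no evidence of binding.
Dynlrb2: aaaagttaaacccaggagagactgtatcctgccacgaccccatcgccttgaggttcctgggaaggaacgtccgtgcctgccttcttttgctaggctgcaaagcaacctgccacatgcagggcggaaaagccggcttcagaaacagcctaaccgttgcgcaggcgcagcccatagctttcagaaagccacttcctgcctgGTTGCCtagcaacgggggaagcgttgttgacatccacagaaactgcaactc
Tekt1: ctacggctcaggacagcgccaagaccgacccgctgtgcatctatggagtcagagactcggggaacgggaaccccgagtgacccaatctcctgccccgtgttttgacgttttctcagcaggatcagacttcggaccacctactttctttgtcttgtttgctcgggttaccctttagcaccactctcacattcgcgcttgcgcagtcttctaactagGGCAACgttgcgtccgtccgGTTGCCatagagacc
Ccdc153: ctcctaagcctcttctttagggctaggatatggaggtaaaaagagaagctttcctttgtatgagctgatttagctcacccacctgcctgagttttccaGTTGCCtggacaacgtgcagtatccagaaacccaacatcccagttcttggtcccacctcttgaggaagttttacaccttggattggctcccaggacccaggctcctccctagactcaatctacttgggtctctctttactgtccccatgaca

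The other genes of the motile cilium and the ependymal cell, taken as lists by role, numbered 94 in the table. Of these, 25 (26.6%) were higher and 6 (6.38%) lower in G93A vehicle against WT vehicle, beside 20.7% and 10.5% of all names, with a median log2 ratio of 0.26. In G93A + SD against WT + SD, 19 (20.2%) were higher and 4 (4.26%) lower, beside 23.8% and 12.8% of all names, with a median of 0.14. The share higher was thus above that of all names with vehicle and below it with SD. In each of these comparisons 1 of the higher genes was listed at 0 in the WT library and counts as higher, as such names do over all names. Both medians lie above those of all names and below those of the 8 genes. In both comparisons 12 of the 94 (12.8%) were higher, a share close to the 14.9% of all names. By sign alone, 59 of the 94 were above 0 in both comparisons, 14 were below 0 in both and 21 had opposite signs, beside 5, 0 and 3 of the 8. These signs were not counted over all names, whose medians were also above 0. The sign counts therefore have no share of all names to be judged by.

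**Figure D3:**
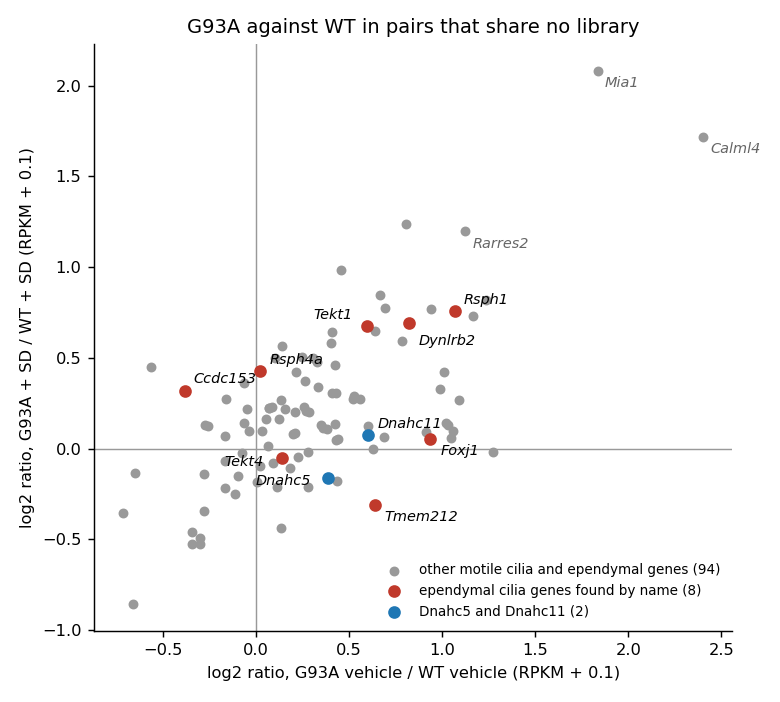
Log2 ratio of G93A to WT (RPKM + 0.1) between the vehicle libraries (horizontal) and between the SD libraries (vertical), with the 8 genes in red, Dnahc5 and Dnahc11 in blue and the 94 other genes in grey. Of the 8 genes, 5 lie above 0 on both axes, Tmem212 and Tekt4 below the horizontal line and Ccdc153 left of the vertical line.

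Among the regulators of multiciliated cells, 2 of 11 (18.2%) were higher and 3 (27.3%) lower between the vehicle libraries. Between the SD libraries, 5 (45.5%) were higher and 1 (9.09%) lower. Over all names, 20.7% were higher and 10.5% lower with vehicle, and 23.8% and 12.8% with SD. The 3 lower with vehicle were Ccno, Gmnc (listed as Gm606) and Mcidas (listed as Gm6320), with ratios of 0.489, 0.537 and 0.444. With SD their ratios were 0.851, 1.61 and 0.164. Their means were low, at 0.158, 0.187 and 0.0336 RPKM. Rfx4, an RFX factor that is also active in glial cells, had 8.15 RPKM in WT vehicle and 11.2 in G93A vehicle, and with SD 7.04 in WT and 14.0 in G93A, past the threshold between the SD libraries with a ratio of 1.99. Rfx2, another factor of the family, had 0.855 RPKM in WT vehicle and 1.44 in G93A vehicle, and with SD 0.762 in WT and 1.37 in G93A, so that it passed the threshold in both comparisons. E2f5, a partner in the multiciliated cell programme, had 5.38 RPKM in WT vehicle and 7.17 in G93A vehicle, and with SD 5.12 in WT and 8.05 in G93A, with ratios of 1.33 and 1.57. E2f4 did not reach the threshold, with ratios of 1.16 and 1.15.

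Of the other axonemal dynein genes, 3 of 13 (23.1%) were higher and 1 (7.69%) lower between the vehicle libraries. Between the SD libraries 0 were higher and 1 (7.69%) lower. Dnaic2, an intermediate chain of the outer arm, had 1.14 RPKM in WT vehicle and 2.42 in G93A vehicle, and with SD 1.41 in WT and 1.56 in G93A. Dnahc7b, an inner arm heavy chain, had 0.406 RPKM in WT vehicle and 1.12 in G93A vehicle, and with SD 0.483 in WT and 0.476 in G93A. Both were highest in G93A vehicle. They were named for the largest vehicle ratios of this list, as were such genes in the other lists. That choice favours values of G93A vehicle and WT vehicle that lie far apart. The dynein genes with the highest means differed less and were not called in either comparison. Their G93A to WT ratios with vehicle and with SD were 0.95 and 0.982 for the light chain Dnalc1, 1.05 and 1.17 for the light chain Dnalc4, and 1.31 and 1.09 for the intermediate chain Dnaic1. The genes of dynein assembly and docking had 3 of 13 (23.1%) higher and 0 lower in each comparison. Of the 3 between the vehicle libraries, 1 was listed at 0 in WT vehicle. In the dynein and the assembly lists the shares higher were close to or below those of all names. Those were 20.7% higher and 10.5% lower with vehicle, and 23.8% and 12.8% with SD. Ccdc114, of the docking complex, had 1.0 RPKM in WT vehicle and 1.80 in G93A vehicle, and with SD 1.22 in WT and 1.89 in G93A. The assembly factor Dnaaf3, listed as 6030429G01Rik, had 0.530 RPKM in WT vehicle and 0.899 in G93A vehicle, and with SD 0.509 in WT and 0.992 in G93A. Both genes were higher in both G93A libraries. Of the genes with the highest means in this list, Heatr2 had ratios of 1.34 with vehicle and 1.52 with SD, while Spag1 had 0.809 and 0.689 and 1110034A24Rik had 1.01 and 0.877.

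Of the other radial spoke and central pair genes, 2 of 13 (15.4%) were higher and 1 (7.69%) lower in each comparison. These shares lay below those of all names, 20.7% and 10.5% with vehicle, and 23.8% and 12.8% with SD. Rsph9, of the spoke head, had 2.51 RPKM in WT vehicle and 5.16 in G93A vehicle, and with SD 2.14 in WT and 2.90 in G93A. Dnajb13, of the spoke stalk, had 0.675 RPKM in WT vehicle and 1.39 in G93A vehicle, and with SD 0.660 in WT and 1.19 in G93A, higher in both G93A libraries. Nme5, with ratios of 1.35 and 1.10, and Ak7, with 1.04 and 1.13, were not called. Of 20 genes of the doublet and its rulers, 5 (25%) were higher and 1 (5%) lower between the vehicle libraries. Between the SD libraries 2 (10%) were higher and 1 (5%) lower, beside the same shares of all names. Ccdc40, a ruler that spaces the dynein arms, had 0.406 RPKM in WT vehicle and 0.948 in G93A vehicle, and with SD 0.683 in WT and 0.714 in G93A. WT vehicle was its lowest library, which naming by the vehicle ratio favours. Tppp3, the gene of this list with the highest mean, had ratios of 0.892 with vehicle and 1.05 with SD.

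Of 24 other genes used as ependymal markers, 10 (41.7%) were higher and 0 lower between the vehicle libraries. Between the SD libraries 7 (29.2%) were higher and 0 lower, and the medians were 0.41 and 0.13. Over all names, 20.7% were higher and 10.5% lower with vehicle, and 23.8% and 12.8% with SD. Of the 7, 1 was listed at 0 in WT + SD. Calml4, a calmodulin-like gene, had 0.729 RPKM in WT vehicle and 4.29 in G93A vehicle, and with SD 1.31 in WT and 4.55 in G93A. Mia1 had 2.83 RPKM in WT vehicle and 10.4 in G93A vehicle, and with SD 2.78 in WT and 12.1 in G93A. Rarres2, which encodes the chemoattractant chemerin, had 10.4 RPKM in WT vehicle and 22.8 in G93A vehicle, and with SD 10.8 in WT and 24.9 in G93A. These larger ratios, up to 5.88 for Calml4, exceed those of the 8 genes, and none of the 3 encodes a known part of the axoneme. The 2 markers with the highest means were not called in either comparison. Cd24a, a surface protein of ependymal and other cells, had 53.8 RPKM in WT vehicle and 44.9 in G93A vehicle, and with SD 48.6 in WT and 53.1 in G93A. Iqck had 22.7 RPKM in WT vehicle and 17.9 in G93A vehicle, and with SD 25.3 in WT and 17.5 in G93A, with ratios of 0.787 and 0.694 that do not reach the threshold. The genes of intraflagellar transport, which builds both motile and primary cilia, had 0 of 25 higher and 0 lower between the vehicle libraries and 1 higher between the SD libraries, with medians of -0.01 and -0.10. Ift20 had between 28.5 and 30.3 RPKM over the libraries, and the kinesin gene Kif3a had 37.5 RPKM in WT vehicle and 25.8 in G93A vehicle.

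**Figure D4:**
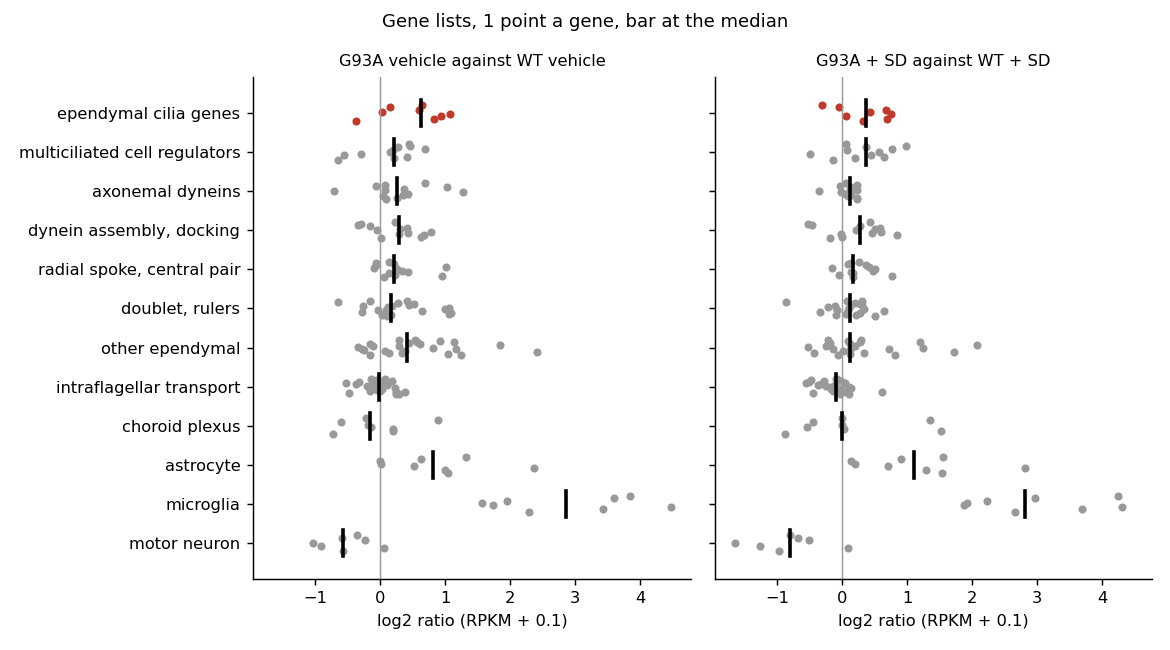
Log2 ratio of G93A to WT (RPKM + 0.1) for each gene of 12 lists between the vehicle libraries (left) and the SD libraries (right), with a bar at each median. The ependymal cilia genes (red) have medians of 0.62 and 0.37, below the microglial medians of 2.85 and 2.82 and above the intraflagellar transport medians of -0.01 and -0.10.

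Marker genes of other cell types also differed between the G93A and WT libraries. The counts stand beside 20.7% of all names higher and 10.5% lower with vehicle, and 23.8% and 12.8% with SD. All 8 microglial genes were higher in both comparisons, and their summed level was 89.6 RPKM in WT vehicle and 723 in G93A vehicle, and with SD 77.6 in WT and 697 in G93A. Of 8 astrocyte genes, 5 were higher between the vehicle libraries and 6 between the SD libraries, with sums of 1037 RPKM in WT vehicle and 3122 in G93A vehicle, and with SD 974 in WT and 3702 in G93A. Gfap, the intermediate filament of astrocytes, gave the largest part of that sum, and Sox9, which ependymal cells also express, had 5.76 RPKM in WT vehicle and 14.5 in G93A vehicle, and with SD 6.05 in WT and 17.8 in G93A. Of 7 motor neuron genes, 4 were lower between the vehicle libraries and 5 between the SD libraries, with sums of 406 RPKM in WT vehicle and 220 in G93A vehicle, and with SD 384 in WT and 143 in G93A. Of 8 oligodendrocyte genes, 1 was higher and 0 were lower between the vehicle libraries, and 1 was higher and 1 lower between the SD libraries. The part of these differences in the values of the ependymal cilia genes was not tested.

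Choroid plexus is another ciliated epithelium of the nervous system. Ttr, its most abundant transcript, had between 0 and 0.107 RPKM, and Otx2 was listed at 0 in 3 of the 4 libraries. The sum of the 8 choroid plexus genes was 4.51 RPKM in WT vehicle and 4.00 in G93A vehicle, and with SD 4.30 in WT and 4.40 in G93A. By gene the list was mixed, with 2 higher and 4 lower between the vehicle libraries and 2 higher and 2 lower between the SD libraries. Over all names, 20.7% were higher and 10.5% lower with vehicle, and 23.8% and 12.8% with SD. Slc4a5 was 2.03-fold higher in G93A with vehicle and 3.0-fold higher with SD, and Folr1 was 3.62-fold higher with SD. Clic6 was lower in G93A, with ratios of 0.543 and 0.481. Prlr, present at 1.20 to 1.87 RPKM, had ratios of 0.639 and 0.715, and Kl had 0.898 and 0.662. Of 6 meningeal fibroblast genes, 2 were higher between the vehicle libraries and 5 between the SD libraries, with sums of 13.0 RPKM in WT vehicle and 15.4 in G93A vehicle, and with SD 13.2 in WT and 21.2 in G93A. Their part in the result was not tested.

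The control library mattered for the counts. With G93A vehicle set against WT + SD instead of WT vehicle, 2 of the 8 genes were higher, Rsph1 and Ccdc153 with a ratio of 1.92, and 0 were lower, beside 21.4% and 10.3% of all names. The median log2 ratio was 0.34. With G93A + SD set against WT vehicle, 4 were higher and 1 lower, Ccdc153 with a ratio of 0.503, beside 23.7% and 13.6% of all names, and the median was 0.51.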

How the data were processed

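RNA from the lumbar spinal cord was measured in 4 libraries, 1 per condition, grouped by the sample labels. The authors deposited 1 table with 1 column per library, and its values were taken as RPKM, inferred from the values because the deposited header names no unit. The methods describe STAR alignment of 53 base polyA reads to GRCm38 and HTSeq counting on Ensembl genes, while the table lists RefSeq transcripts. The 3 ratio columns the authors deposited were not used. The design was written before the unit was known, and its rule for a normalized unit applied.

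Rows of a name were averaged. A ratio of at least 1.5 without pseudocount was a call, a name at 0 in 1 library of a ratio counted as called, a name at 0 in both was left out, and median log2 ratios have a pseudocount of 0.1 RPKM. Transcript positions and lengths came from GENCODE M21, and sequences from RefSeq. Stretches of 53 bases shared with other genes were searched with blastn 2.17.0: Rsph4a shared 0.278% of them and Dnah11 4.22%, and the other 8 genes shared 0.

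The members and lists were chosen with earlier results of these data known. The genes named are the members, their listed relatives, per list at most 3 genes with the highest mean and 2 with the largest ratio between the vehicle libraries (mean of at least 0.5 RPKM), the 5 names most similar to the members, and some chosen after their values were seen, namely Cdca7l, Ttr, Otx2, Folr1, Ccno, Gmnc and Mcidas. Of the genes named by this rule, 2 are not reported here. Alternatives were pseudocounts of 0.1 and 1 RPKM, median-ratio scaling, a mean of at least 1 RPKM, the highest row of a name, a 2-fold threshold and, added after seeing the data, the older symbols, the other control library and, for genes higher in both comparisons or above both WT libraries, every alternative run. Calculations ran in Python 3.11.15 with pandas 2.3.3 and numpy 2.4.6, and plots were drawn with matplotlib 3.10.9. On simulated data for G93A vehicle against WT vehicle, 200 of 200 genes changed 2-fold were called among 18674. The changed genes were drawn from higher names only and the added noise was small, so such a change could hardly miss the 1.5-fold threshold. This run checks the calculation and says nothing of how reliable calls on low genes are.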

Additional observations from a re-analysis of the deposited data

Results flagged for a closer look

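In 6 genes the ratio between libraries pointed in opposite directions in the 2 settings of 1 contrast. With 1 library per condition none of these differences was tested. The SD to vehicle ratio was above 1 in WT and below 1 in G93A for 4 genes. On the log2 scale, the WT ratio minus the G93A ratio was 0.89 for Foxj1, 1.01 for Tmem212, 0.66 for Dnahc5 and 0.74 for Dnahc11. The G93A to WT ratio pointed in opposite directions with vehicle and with SD for 4 genes. The vehicle ratio minus the SD ratio was -0.76 for Ccdc153, which was lower in G93A with vehicle only, 1.01 for Tmem212, 0.24 for Tekt4 and 0.66 for Dnahc5. For Tmem212 and Dnahc5 both differences are the same quantity, since they rest on the same 4 values. The difference of Tekt4 rests on at most 32.4 estimated read pairs in a library.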

How the results depend on the processing

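No paired analysis was possible because the labels give no replicate numbers that groups share, and with 1 library per condition no replicate could be left out. The G93A and WT libraries of each treatment were compared as separate ratios, without a fit over all 4. No median log2 ratio changed sign under any alternative run, although a pseudocount cannot change the sign of a single gene. A count could only stay close or move, so it had no direction to lose. Of the values that answer a comparison 70 stayed close (a count within 1.5 times, a median log2 ratio within 0.1) and 20 moved. With a pseudocount of 1 RPKM, which shrinks the ratios of low genes, the genes higher in G93A numbered 3 with vehicle, 1 with SD and 1 in both, the median log2 ratios were 0.39 and 0.23, the SD median in WT was 0.20, and 0 genes were lower with SD in G93A. That last number was also 0 with a pseudocount of 0.1 RPKM for the call and at 2-fold. At 2-fold, 1 gene was higher in G93A with vehicle, 0 with SD and 0 in both. The share of all names called was not counted with a pseudocount, with median-ratio scaling or at 2-fold. With WT + SD as the control of G93A vehicle, 2 genes were higher and the median was 0.34. With WT vehicle as the control of G93A + SD, 1 was lower and the median was 0.51. With Dnahc5 and Dnahc11 included, the median was 0.20 for G93A against WT with SD and 0.059 for SD in G93A, and 1 gene was higher with SD in WT. After median-ratio scaling, 3 genes rather than 5 were above both WT libraries in both G93A libraries, and 4 rather than 5 were higher in G93A with vehicle, as Tekt1 (log2 ratio 0.58) no longer reached 1.5-fold and 2 rather than 3 were then higher in both comparisons. The cause of these shifts was not tested beyond what each alternative changes by construction. Of the values of single genes, 33 moved and 87 stayed close. The depth limits Tekt4, Tmem212, Ccdc153 and Dynlrb2 most, with fewer than 100 estimated read pairs in every library.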

Other observations

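The names outside the lists whose pattern over the 4 libraries lay nearest to the mean pattern of the 8 genes were Ormdl2, Eif6, Zscan12, Pprc1 and 4933424B01Rik, among 12868 names compared. The measure was the Euclidean distance of log2(RPKM + 0.1), centred over the libraries, and it was 0.0159 for Ormdl2, 0.0268 for Eif6, 0.0298 for Zscan12, 0.0309 for Pprc1 and 0.0327 for 4933424B01Rik. Ormdl2 had 8.13 RPKM in WT vehicle and 11.4 in G93A vehicle, and with SD 9.07 in WT and 11.5 in G93A. The 8 genes themselves lay farther from their own mean pattern, between 0.356 for Rsph4a and 1.15 for Ccdc153. A distance over 4 libraries says nothing of shared function.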
